A study of Mus musculus with 3 samples.

Results

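The cells described here were neutrophil-like cells found among cells sorted from mouse molars, chosen by their UMI counts. A UMI is a molecular tag that marks a single captured mRNA molecule. Cells with at most 20% of UMIs from mitochondrial genes and at least 300 detected genes were kept. A kept cell was chosen where S100a8 and S100a9 together held at least 1% of its UMIs, where Tyrobp, Fcer1g, Lcp1 and Ptprc, 4 genes shared by many blood cells, together had at least 2 UMIs, and where Csf1r, the receptor that marks macrophages and monocytes, had at most 1 UMI. These conditions were met by 459 of 24789 kept cells, of which 442 came from the P15 library, 13 from P25 and 4 from 8 weeks. Because counts of the same cells chose them, the comparisons with other cells below are descriptions, and no test was applied.

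The study sorted mCherry-positive cells from dissociated mandibular molars of Pthrp-mCherry knock-in mice, in which the red reporter stands at the locus of the parathyroid hormone-related protein gene, in order to follow the lineage of the cells that make tooth root cementum. Cells of several mandibles were pooled and sorted on postnatal day 15 (P15), on day 25 (P25) or after 8 weeks, all from the same knock-in genotype and with no treatment in the labels. Each time point was 1 library of the 10x Chromium 3' assay, so there was no biological replicate and age and library cannot be told apart. The P15 library held 12926 cells and 188157997 UMIs, the P25 library 8971 cells and 169712592 UMIs, and the 8-week library 5192 cells and 46234378 UMIs.

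Neutrophils are short-lived white blood cells made in bone marrow, and they pack their antimicrobial proteins into granules in a fixed order. Primary granule proteins (such as Elane and Mpo) are made first, secondary granule proteins (such as Ltf, Camp and Ngp) next, gelatinase granule proteins (such as Mmp9) later, and receptors such as Csf3r and Cxcr2 are characteristic of mature cells. S100a8 and S100a9 pair into calprotectin, a calcium-binding and metal-binding protein that is a major part of neutrophil cytosol. C/EBP factors, among them Cebpe, are known regulators of the secondary granule genes.

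The promoters of S100a8, S100a9 and the 10 listed secondary granule genes were searched for the C/EBP-type motif TTGCNNAA on both strands, where the other strand reads TTNNGCAA, from 250 bases before to 50 bases after the gene start. RefSeq gave a promoter for 11 of the 12 genes, with Hp named only. The letters were present in 5 of the 11 (45.5%), against 3298 of 27025 genes in the whole table (12.2%). The matches are written out because these genes carry much of what sets the cells apart. Each is written 5′ to 3′ on the gene's own strand with the motif in capitals, on GRCm38.p6, and Ngp and Fcnb held 2 matches each.
S100a9, chr3:90695930-90695971, minus strand: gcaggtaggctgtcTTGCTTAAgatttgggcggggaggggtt
Ltf, chr9:111019197-111019244, plus strand: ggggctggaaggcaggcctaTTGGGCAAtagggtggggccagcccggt
Ngp, chr9:110419650-110419697, plus strand: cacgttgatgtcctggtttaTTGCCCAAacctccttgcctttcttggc
Ngp, chr9:110419777-110419824, plus strand: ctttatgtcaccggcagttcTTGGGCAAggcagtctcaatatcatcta
Lcn2, chr2:32387928-32387975, minus strand: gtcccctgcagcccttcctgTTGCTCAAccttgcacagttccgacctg
Fcnb, chr2:28085086-28085128, minus strand: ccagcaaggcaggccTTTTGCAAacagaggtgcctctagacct
Fcnb, chr2:28084974-28085021, minus strand: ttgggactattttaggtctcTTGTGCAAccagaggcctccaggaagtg
The capitals began 236 bases before the start of S100a9, 75 before that of Ltf, 138 and 11 before that of Ngp, 216 before that of Lcn2, and 235 and 123 before that of Fcnb. These starts are those of the RefSeq promoter table, and for Ltf, Ngp, Lcn2 and Fcnb they lie further into the gene than the start in the annotation behind the gene coordinates given next. By that annotation the Lcn2 stretch, and the Ngp stretch that began 11 bases before the RefSeq start, lay inside the gene. A match describes these letters and no measured binding. In the GRCm38 annotation S100a8 (chr3:90668978-90670035, plus strand) and S100a9 (chr3:90692632-90695721, minus strand) were neighbours, and Ngp (chr9:110419747-110423012) and Ltf (chr9:111019271-111042767) and Camp (chr9:109847379-109849617) shared chromosome 9.

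At P15 the cells made up 3.79% of 11649 kept cells (95% Clopper-Pearson interval 3.45 to 4.16%). At P25 they were 0.154% of 8422 cells (0.0822 to 0.264%) and at 8 weeks 0.0848% of 4718 cells (0.0231 to 0.217%). The P15 interval lay wholly above those of the later libraries, which overlapped each other. All intervals here and below cover counting error only. Among immune cells alone, the P15 share was 42.7% of 1036 (39.6 to 45.7%), that of P25 5.80% of 224 (3.13 to 9.72%) and that of 8 weeks 12.5% of 32 (3.51 to 29.0%). The immune cells counted here were held to under 1% collagen, Sparc and keratin UMIs and the neutrophil-like cells were not. Beside the 442, 13 and 4 cells stood 1648, 410 and 62 other cells with a Ptprc or Tyrobp UMI and no such limit, so the share depended on which cells were called immune. These shares were taken after a sort for mCherry and apply to the sorted cells, and dissection and blood content at each age were not measured. Between libraries 55 cell barcodes were shared, 2 of them with a neutrophil-like cell on a side.

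**Figure D1:**
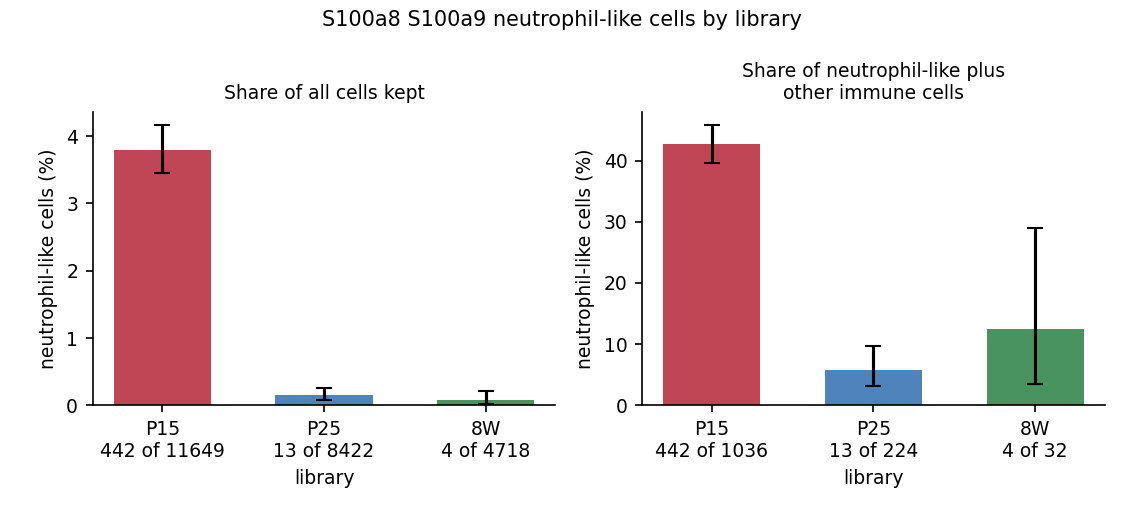
The neutrophil-like cells as a percent of all kept cells (left) and of neutrophil-like plus other immune cells (right; vertical axes, percent) in the P15, P25 and 8-week libraries, as bars with 95% Clopper-Pearson intervals. Of all kept cells, the P15 library holds 3.79% against 0.154% and 0.0848% in the later libraries, with 1 library per time point.

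The immune cells used for comparison had at least 1 UMI of Ptprc or Tyrobp, at least 2 UMIs of the 4 blood cell genes and under 1% of UMIs from collagens, Sparc and keratins. The P15 library had 594 of them, the P25 library 211 and the 8-week library 28. At P15 they comprised 375 cells with at least 2 Csf1r UMIs, 79 with Cd79a or Cd79b, 20 with T or natural killer cell genes and 120 others. Of the 594 cells, 22 held 1% or more S100a8 and S100a9 but missed the conditions through Csf1r, and these 22 carried most of the S100a8 of the comparison cells, which stood at 3830 CPM (UMIs scaled to a total of 1000000 in the class) with them and at 96.8 CPM without them. Ratios are given with all 594 cells unless stated otherwise, and they were larger for the granule genes without the 22, a setting chosen after seeing the data. They were smaller where the cells with 1 Csf1r UMI were counted with the comparison cells instead, with log2 ratios of 2.99 in place of 5.23 for Retnlg, 3.37 in place of 4.73 for Camp and 3.91 in place of 6.20 for Stfa3.

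At P15, S100a8 and S100a9 together held a median of 27.0% of a cell's UMIs, with quartiles of 14.4 and 34.6% and a range of 1.02 to 56.4%. The median cell had 787.5 UMIs of S100a8 and 1062 UMIs of S100a9. Only 17 cells lay between 1 and 2%, and 29 cells of the library lay just below the condition, between 0.5 and 1%. Of 489 P15 cells at 1% or more, 18 failed on the blood cell genes and 29 on Csf1r. The S100a8 to S100a9 ratio of summed UMIs was 0.816, 0.792 and 0.629 in order of age, and across the 442 cells the UMI shares of both genes had a Spearman correlation of 0.94, given without a p because both come from the same cells and totals.

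The cells were shallow in RNA. Their median was 7090 UMIs and 1641.5 genes, against 11078.5 UMIs and 3040.5 genes in the other immune cells. Thinned to 1000 UMIs each, which left out 11 cells, they still showed a median of 438 genes, against 606 in Csf1r-positive cells, 629 in Cd79-positive cells and 620 in mesenchymal cells, so that fewer genes shared the same number of molecules. S100a8 and S100a9, which chose the cells, held a median of 27.0% of a cell's UMIs, so part of this difference came with the choice. The median mitochondrial share was 0.731%, against 3.84% in the other immune cells, and the median share of ribosomal protein genes was 3.15%, against 17.9%. The low mitochondrial and ribosomal shares also held at P25 (0.441% and 1.79%) and at 8 weeks (0.742% and 3.65%).

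The P15 cells were not all free of other transcripts. In 77 of 442, collagens, Sparc and keratins made up at least 1% of UMIs. These 77 had a median of 17120 UMIs, a median S100a8 and S100a9 share of 7.23%, and a median mitochondrial share of 3.50%. Below 10% S100a8 and S100a9, 50 of 75 cells were of this kind, and at or above 10%, 27 of 367 were. Scrublet, a program that scores cells by likeness to simulated mixtures, placed 60 of the 442 among the 782 P15 cells with the highest scores. These 782 were about 6% of the 12926 deposited cells of the library. Of the 60, 48 were among the 77. Neutrophil-like cells with collagen are thus described by these values, and main values are given for all 442 cells with those of the 365 other cells where they changed a direction. The part of mixed droplets in them was not tested further.

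**Figure D2:**
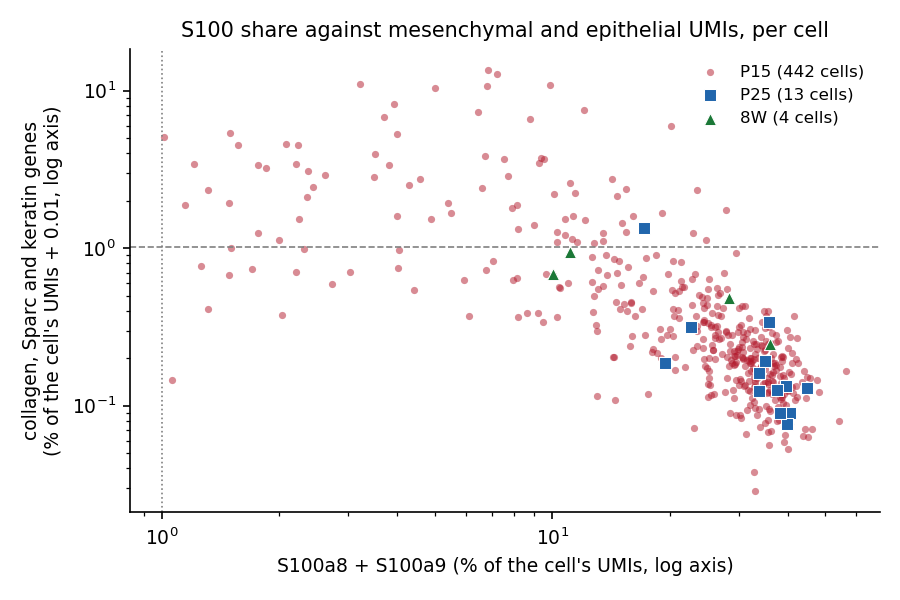
Each point is a neutrophil-like cell (circles P15, squares P25, triangles 8 weeks), with the percent of UMIs from S100a8 and S100a9 on the horizontal axis and the percent from collagens, Sparc and keratins, with a small constant added, on the vertical axis, both logarithmic, and lines at 1%. Most of the 442 P15 cells lie at high S100 and low collagen, and the 77 at 1% or more collagen and keratin lie mainly at lower S100 shares.

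The label was then compared with its markers. Ltf, lactoferrin of the secondary granules, had 4399 CPM (4340.0 to 4458) and a UMI in 50.9% of cells, and Lcp1, which the conditions used, is an actin bundler of blood cells. Of genes the conditions did not use, Camp, the cathelicidin precursor, stood at 20927 CPM, Ngp, a neutrophilic granule protein, at 18059 CPM, and Retnlg, a resistin-like secreted protein, at 15118 CPM. UMIs are counted once per molecule from the 3′ end, so CPM values were not divided by gene length. These genes were present in the other immune cells at 780.3, 671 and 393 CPM, and at 12.2, 14.5 and 13.3 CPM without the 22 S100-rich cells. The mesenchymal cells of the same library, which should lack these genes, had 10.1, 11.8 and 12.2 CPM. Thinned to 1000 UMIs, Retnlg was seen in 85.4% (81.7 to 88.6%; 94.1% unthinned) and Ltf in 40.6% (35.9 to 45.4%; 50.9% unthinned) of the cells, against 1.62% and 0.560% of mesenchymal cells.

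Apart from Ly6c2, macrophage, B lineage and mast cell genes were lower than in the other immune cells. The macrophage and monocyte list summed to 536 CPM in the neutrophil-like cells, of which Ly6c2 alone was 486 CPM, against 9353 CPM in the other immune cells and 17.2 CPM in mesenchymal cells. Csf1r was capped by the conditions, and 9 of the 10 other genes of the list had a log2 ratio below -1, as did 19.4% of all genes compared. The remaining gene, Ly6c2, went the other way, with a log2 ratio above 1, as had 7.64% of all genes. C1qa, a complement component made by macrophages, stood at 5.13 against 2301 CPM, and the mannose receptor Mrc1 at 0.615 against 857 CPM. The B lineage list summed to 47.8 against 692 CPM (4.97 CPM in mesenchymal cells) with Igll1 at 0, the mast cell and basophil list to 2.05 against 1345 CPM with Fcer1a, Cpa3, Gata2, Cma1 and Mcpt4 at 0, and the eosinophil list to 19.9 against 59.0 CPM with Prg2, Prg3, Il5ra and Epx at 0. Antigen presentation genes were low as well, with the invariant chain Cd74 at 36.7 against 5888 CPM and the class II gene H2-Ab1 at 7.18 against 2315 CPM, and the dendritic cell list summed to 73.8 against 11589 CPM. Osteoclast genes summed to 92.5 against 1232 CPM (29.8 CPM without the 77 cells described above), platelet genes to 10.3 against 1638 CPM, progenitor genes to 18.5 against 35.8 CPM and endothelial genes to 6.36 against 73.4 CPM. The platelet sum of the other cells was almost all Pf4, at 1622 CPM. Pf4 stood at 2214.5 CPM in the Csf1r-positive cells and at 0 CPM in the Cd79-positive cells, so this sum cannot be read as a measure of platelets. The apolipoprotein gene Apoe, another of the 10 lowest ratios, stood at 91.5 against 10497 CPM. Each of these lists thus had a lower sum in the neutrophil-like cells than in the other immune cells.

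Of the T and natural killer cell genes, Cd3d stood apart. This subunit of the T cell receptor complex had 193 CPM (181 to 206) in the neutrophil-like cells with a UMI in 70.4% of them, against 7.75 CPM and 2.53% of the other immune cells. Its partner Cd3e had no UMI in any of the 442 cells, which allows up to 3 UMIs over the class, and Cd3g had 8.82 CPM. Cd3d was also at 235 CPM in the P25 cells, where 10 of 13 had a UMI, and at 242 CPM at 8 weeks, where 2 of 4 had a UMI. The 4 T and natural killer genes at 0 were Cd3e, Gzma, Ncr1 and Klrb1c. Whether the Cd3d UMIs came from a transcript of Cd3d or of an overlapping gene was not tested.

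Over 6586 genes with at least 20 CPM in either class, 503 (7.64%) had a log2 ratio above 1 in the neutrophil-like cells and 1276 (19.4%) had one below -1, with a median log2 ratio of -0.46. Ratios used log2(CPM + 10), which understates the change of low genes, and past the fold means a log2 ratio above 1 or below -1. S100a8 and S100a9 took up much of the UMIs of these cells, and the balance depended on scaling. With trimmed mean (TMM) scaling 860 genes were higher and 625 lower, with a median of -0.05, and with CPM computed without S100a8, S100a9 and the secondary granule list 949 were higher and 670 lower. Ratios below are on the CPM scale, with TMM scaling named where it changed a call given here.

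All 10 secondary granule genes lay above the fold, against 7.64% of all genes, with a median log2 ratio of 4.09, or 5.95 without the 22 S100-rich comparison cells. Their levels summed to 55898 CPM in the neutrophil-like cells, against 2157 CPM in the other immune cells and 44.0 CPM in mesenchymal cells. Camp and Ngp were followed by Lcn2, the iron siderophore binder lipocalin 2, at 7132 against 233 CPM (log2 ratio 4.87). Chil3, a chitinase-like secreted protein, had 2981 against 153 CPM (4.19), and Hp, the haemoglobin binder haptoglobin, 1461 against 102 CPM (3.72). Hp was present in 95.7% of cells, while Fcnb, the lectin ficolin B, was present in only 11.8% at 282 CPM, so members of the list differed in how widely they were spread over the cells. Cd177, a surface protein of neutrophils, was at 463 CPM and Olfm4, olfactomedin 4, at 75.9 CPM in 16.7% of cells.

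Genes of the gelatinase granule list and of mature neutrophils were also higher. In the gelatinase granule list 4 of 5 genes lay above the fold, against 7.64% of all genes. The collagenase Mmp8, placed in this list but also known from secondary granules, stood at 1675 against 60.1 CPM (log2 ratio 4.59) and the gelatinase Mmp9 at 1018 against 156 CPM (2.63). The exception was Slc11a1, a metal transporter of phagocytes, at 40.2 against 64.5 CPM. In the mature neutrophil list all 14 genes lay above the fold, with a median of 2.74, and against Csf1r-positive cells alone all but Clec4e did. Retnlg had the highest level of the list, with a log2 ratio of 5.23. The receptors followed, with the G-CSF receptor Csf3r at 300.3 against 36.1 CPM, the chemokine receptor Cxcr2 at 506 against 37.1 CPM, and Trem1, an amplifying receptor of myeloid cells, at 358 against 27.0 CPM. The smallest ratios of the list were those of Clec4e (1.10) and Hdc, histidine decarboxylase (1.15), which is also a gene of basophils and mast cells.

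Primary granule genes were sparse and uneven. Elane, neutrophil elastase, stood at 186 against 42.2 CPM but was seen in only 2.26% of the cells, and Mpo, myeloperoxidase, at 77.7 against 104 CPM in 1.81%. Only 14 of the 442 cells (3.17%, 1.74 to 5.26%) had at least 5 UMIs of the list, and these 14 held 98.1% of its 2582 UMIs. They had a median depth of 35270 UMIs and a median secondary granule share of 12.4%, and none was among the 77 with collagen. In 2 cells the list reached 1380 and 754 UMIs, with 516 and 297 UMIs of Elane and no UMI of Ltf, whereas the other 12 had at most 142. The level of this list in the class thus rested on a few cells. By genes, Elane and Ms4a3 of the 5 compared lay above the fold, against 7.64% of all genes. Prtn3 did as well under TMM scaling and without the 77 cells, against 13.3% and 7.81% of all genes. The protease gene Ctsg lay below the fold, against 19.4% of all genes. Against Csf1r-positive cells alone all 5 genes of the list, Ctsg included, lay above the fold, as did 9.27% of all genes in that comparison.

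**Figure D3:**
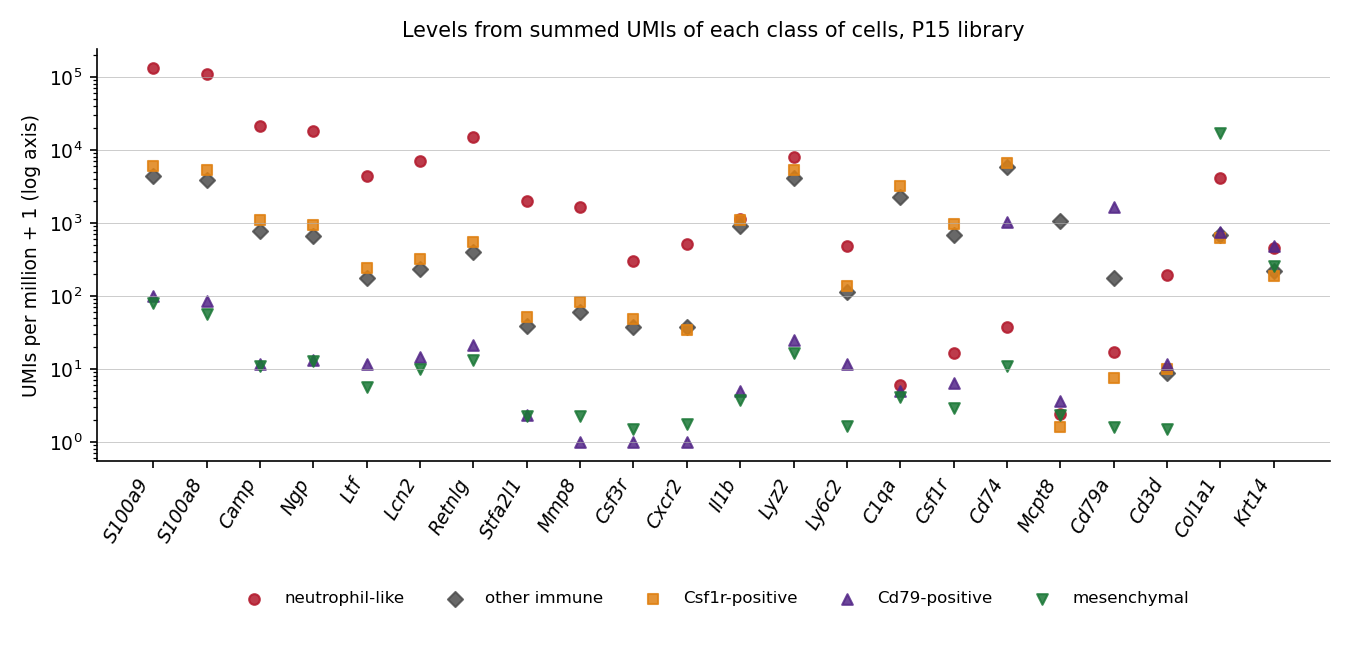
Levels of 22 genes (vertical axis, CPM + 1, logarithmic) in the P15 neutrophil-like, other immune and mesenchymal cells, each a sum of UMIs over 442, 594 and 6468 cells, and in the 375 Csf1r-positive and 79 Cd79-positive cells that are among the 594. The granule and Retnlg levels of the neutrophil-like cells lie far above those of the other classes, while their Il1b level lies close to that of the other immune cells.

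Against all the other immune cells, the inflammatory cytokine list had shares past the fold near those of all genes. None of its 12 genes lay above the fold, against 7.64% of all genes, and 3 lay below, against 19.4%. Its summed level was 3384 CPM against 5987 CPM. Il1b, interleukin 1 beta, was at 1131 against 903 CPM and had a UMI in 64.9% against 39.7% of cells. Cxcl2, a chemokine that attracts neutrophils, was at 946 against 1556 CPM. The 3 genes below the fold were the chemokines Ccl3 (52.3 against 935 CPM) and Ccl4 (76.3 against 1532 CPM) and the cytokine Tnf (16.8 against 110.4 CPM), and under TMM scaling the chemokine Ccl6 lay above it. Part of what remained sat in few cells. A single cell with 33.9% of its UMIs in this list had 190 UMIs of Ccl3 and 256 of Ccl4, out of 255 and 372 in all 442 cells, and this cell held 1.06% S100a8 and S100a9 with no UMI of Retnlg or Csf3r. Against Csf1r-positive cells alone 5 of the 12 genes (Ccl3, Ccl4, Tnf, Cxcl2 and Cxcl3) lay below the fold, against 19.7% of all genes. In that comparison Ccl6 lay above the fold, against 9.27% of all genes.

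Among transcription factors, Cebpe was the only gene above the fold, at 239.8 against 10.2 CPM (log2 ratio 3.63), with a UMI in 47.5% of cells. Cebpb, which acts in many myeloid cells, stood at 1291 against 1038 CPM and Spi1, a master regulator of myeloid fate, at 421 against 323 CPM. Genes below the fold included Cebpa, Irf8, Klf4 and Runx1. Of these, the monocyte factor Irf8 was at 8.82 against 118 CPM, and Klf4 was within the fold under TMM scaling. Gfi1, a repressor needed for neutrophil formation, had 15 UMIs in all and was too low to compare.

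The phagocyte NADPH oxidase, which makes superoxide, was higher in 5 of 6 subunits, against 7.64% of all genes, with a median log2 ratio of 1.28. Against Csf1r-positive cells alone 3 of the 6 (Ncf1, Ncf4 and Rac2) lay above the fold, against 9.27% of all genes. The membrane subunit Cybb stood at 799 against 331 CPM, the cytosolic subunit Ncf1 at 513 against 149.6 CPM and the small GTPase Rac2 at 911 against 305 CPM. Cyba, the partner of Cybb, differed little, at 1392 against 1225 CPM. Adhesion and chemotaxis genes were divided. Of 10 genes compared, 4 lay above the fold, against 7.64% of all genes, and 1 below, against 19.4%. Those above were the integrin chains Itgam, Itgb2 and Itgal and the leukotriene receptor Ltb4r1 (230.1 against 40.1 CPM). The gene just below was Ccrl2, a chemerin-binding receptor, at a log2 ratio of -1.03, and 5 genes lay within the fold. Without the cells with collagen no gene of the list lay below the fold, against 33.5% of all genes. Under TMM scaling 7 of the 10 genes, with Ccr1, Cd44 and Selplg added, lay above the fold and none below, against 13.3% and 9.70% of all genes.

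Of 7 Fc and inhibitory receptor genes compared, 1 lay above the fold and 2 below, near the 7.64% and 19.4% of all genes. Fcgr1, the high-affinity receptor, had 1 UMI in the neutrophil-like cells against 126 CPM in the other immune cells, and the inhibitory Fcgr2b had 16.8 against 259.9 CPM. Fcgr3 (204 against 368 CPM) and Fcgr4 (58.9 against 24.8 CPM) lay within the fold, and Cd300lf, a receptor with inhibitory signalling, was the gene above it, joined by Fcgr4 and Pirb under TMM scaling. Of 9 interferon response genes compared, 5 lay below the fold, against 19.4% of all genes, among them Isg15, a ubiquitin-like protein, at 23.6 against 109.6 CPM and Ifit3 with no UMI in 442 cells. Under TMM scaling Isg15, Ifit3 and Ifitm1 remained below the fold, but Ifitm1 lay above it against Csf1r-positive cells alone. The gene above the fold was Ifitm6, at 1072 against 50.9 CPM.

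Within the S100 family the cells were selective. Beside S100a8 and S100a9, S100a11 had 3892 against 803 CPM and S100a6 3395 against 896 CPM. S100a4 had 12.3 against 487 CPM and S100a10, the partner of annexin A2, 133 against 645 CPM. Members of a single gene family thus lay on both sides of the fold. These family members were looked at after their values had been seen. The most abundant genes further included Tmsb4x, an actin binder, at 15688 against 19195 CPM, the lysozyme gene Lyz2 at 7897 against 4097 CPM, and Wfdc21, a whey acidic protein family member, at 3887 against 131 CPM.

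With predicted Gm genes left out, the 5 highest ratios among genes with at least 200 CPM belonged to stefin A genes, which code for inhibitors of cysteine proteases and lie together on chromosome 16 (BC100530 at chr16:36359382-36367748 and Stfa3 at chr16:36450537-36455392). This order depended on the comparison cells, and without the 22 S100-rich cells Camp (9.88), Ngp (9.53) and Retnlg (9.34) had higher log2 ratios than BC100530 (9.02). Stfa3 stood at 1811 against 14.8 CPM (log2 ratio 6.20), Stfa2l1 at 2003 against 37.5 CPM and BC100530 at 9499.6 against 219 CPM. Cstb, the stefin B gene, which lies outside this cluster, was lower, at 98.0 against 513 CPM. The sum over 8 stefin A genes, formed after their values had been seen, was 23286 CPM at P15 (23151 to 23422), against 468 CPM in the other immune cells and 13.2 CPM in mesenchymal cells. These genes are near-identical copies, so how reads were shared among them is uncertain.

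The stefin A sum was lower in the later libraries. It was 2666 CPM in the 13 P25 cells (2402 to 2950) and 3203 CPM in the 4 cells of 8 weeks (2399 to 4189). Per cell, the median share at P15 was 1.24% of UMIs, with a range of 0 to 19.4% and 42 of 442 cells without a UMI. The highest of the 17 later cells had 1.17%, and 229 of the 442 P15 cells lay above it, so the ranges overlapped. Among cells with under 5% of UMIs in secondary granule genes the sum was 26898 CPM in 313 P15 cells, 3154 CPM in 9 P25 cells and 3309 CPM in 3 cells of 8 weeks. BC100530 alone had 9499.6 CPM at P15, 819.7 CPM at P25, from 1 cell, and no UMI at 8 weeks. The P25 counts were made with a larger gene table and another version of the counting program, and its effect on near-identical genes was not tested, while P15 and 8 weeks had the same table and version.

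**Figure D4:**
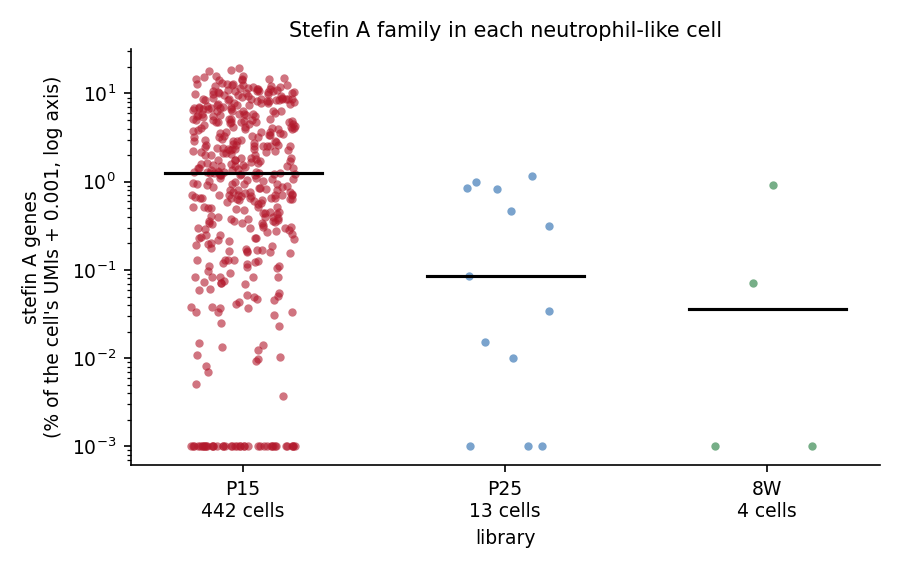
The percent of a cell's UMIs from 8 stefin A genes (vertical axis, logarithmic, with a small constant added so that cells at 0 are drawn at the bottom) for each neutrophil-like cell of the P15, P25 and 8-week libraries, with a line at each median. The P15 cells spread from 0 to 19.4%, while the 17 later cells lie at or below 1.17%.

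The P15 cells varied widely in their secondary granule genes, whose share of UMIs per cell ran from 0 to 41.7%. The cells were ordered by this share and divided into 4 bins of 111, 111, 110 and 110 cells with median shares of 0.196, 0.552, 2.51 and 11.0%. The secondary granule genes themselves made the order, and their values are given as a description. Ltf was at 11.2, 73.6, 2824 and 9099 CPM and Camp at 71.8, 936, 10209 and 45062 CPM from the lowest to the highest bin. Depth moved with the order, with median UMIs of 3610, 4802, 8159.5 and 14008.5, and so did the number of cells with collagen, at 40, 11, 17 and 9. The median S100a8 and S100a9 share was 11.1, 25.2, 32.0 and 34.8%. The part of depth and of mixed cells in what follows was not tested, and the bins were also formed anew without the 77 cells, a setting chosen after seeing the data.

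Between the bins with the highest and the lowest share, 335 of 6494 genes (5.16%) had a log2 ratio above 1 and 2286 (35.2%) had one below -1, with a median of -0.65. Against that background, 10 of 11 cytokine genes and 7 of 14 mature neutrophil genes lay below the fold, and 5 of 6 oxidase subunits and 7 of 11 cell cycle genes lay above it. Without the 77 cells the median log2 ratio went from -2.42 to -3.18 for the cytokine list, from -0.96 to -1.85 for the mature neutrophil list, from 1.42 to 0.48 for the oxidase list and from 1.31 to 1.02 for the cell cycle list, against -0.48 over all genes. Of the oxidase subunits only Cybb (3.73) then lay above the fold. Il1b was at 2583, 2347, 687 and 264 CPM across the bins and Csf3r at 575, 571, 225 and 115 CPM. Both were lower in the highest bin than in the lowest, also without the 77 cells (log2 ratios of -4.37 and -3.19). In the other direction, Cebpe was at 14.6, 74.9, 173 and 449 CPM and Cybb at 62.9, 182, 690.1 and 1448 CPM. Retnlg was highest in the middle bins, at 7804, 24323, 26549.7 and 7607 CPM, as was the summed mature neutrophil list, at 14216, 35044, 33457 and 11323 CPM.

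Correlations across single cells, without any division, were strong for some of these genes and weak for others. Over the 442 cells the Spearman correlation of the secondary granule share with the share of the cytokine list was -0.60, with Csf3r -0.52, with Cxcr2 -0.39 and with Il1b -0.56, and with Cebpe it was 0.63 and with Lyz2 0.69. Without the 77 cells with collagen these values were -0.79, -0.75, -0.64, -0.69 and 0.62 for the first 5 of them. With Retnlg the correlation was 0.01, with the mature neutrophil list -0.15 and with the cell cycle list 0.14. Without the 77 cells these 3 values were -0.07, -0.30 and 0.20. The correlation with the oxidase list was not computed. All points share 1 library, differ in depth, and are shares of the same totals, so no p is given.

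**Figure D5:**
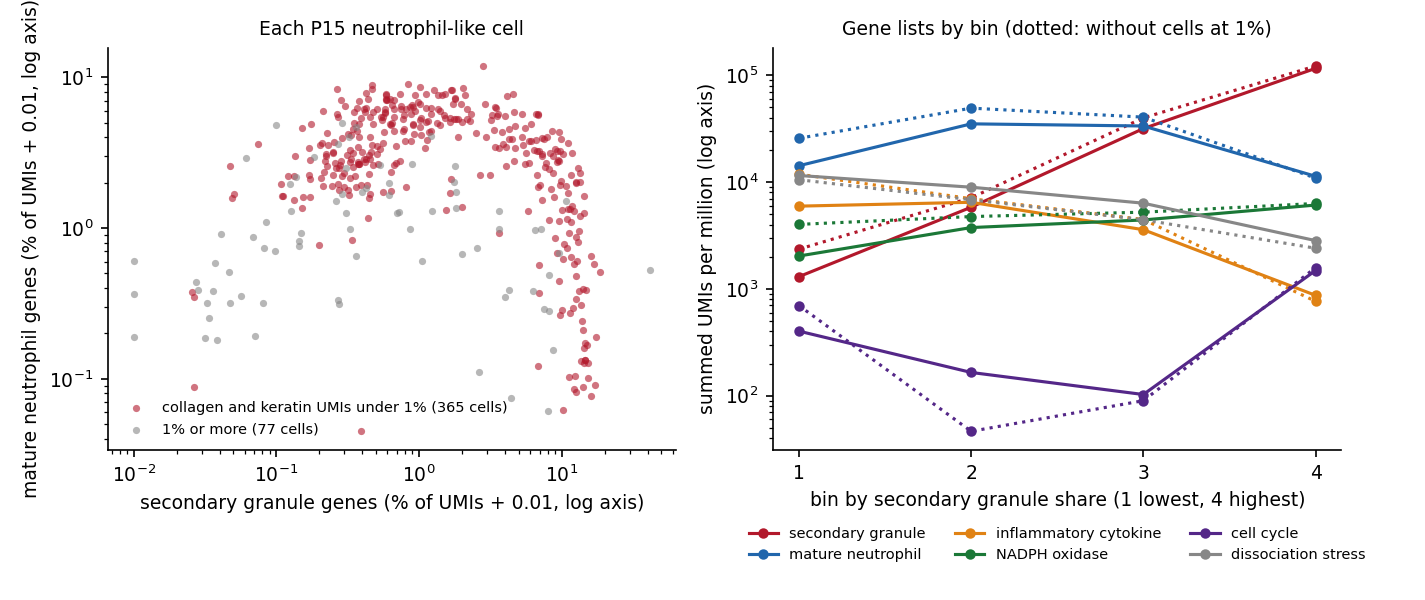
P15 neutrophil-like cells, with the percent of UMIs in the mature neutrophil list (vertical axis) against that in the secondary granule list (horizontal axis) for each cell in the left panel, and summed levels (CPM) of 6 gene lists by bin of the secondary granule share in the right panel, dotted without the 77 cells with collagen, on logarithmic scales. From the lowest to the highest bin the cytokine list goes from 5946 to 870 CPM with all cells, while the oxidase list goes from 2030 to 6086 CPM, and without the 77 cells these lists go from 11828 to 765 CPM and from 4012 to 6297 CPM.

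Cell cycle genes marked a small group. In 48 of the 442 cells (10.9%, 8.12 to 14.1%) the list had at least 5 UMIs, and these held 95.9% of its 3535 UMIs. Of the 48, 31 lay in the bin with the highest secondary granule share, where the list summed to 1484 CPM, against 402, 165 and 103 CPM in the lower bins, and without the 77 cells 1577 CPM against 697, 46.4 and 89.8 CPM. Mki67, a marker of dividing cells, was at 47.1, 27.9, 19.5 and 317 CPM. Of the 48 cells, 13 were among those with collagen, and their median depth was 30241 UMIs, which also makes 5 UMIs easier to reach. Thinned to 1000 UMIs, Mki67 was seen in 5.57% of cells. At P25 the list had 28.5 CPM and at 8 weeks no UMI. Against all other immune cells its median log2 ratio was -0.15, under TMM scaling, where Pcna was no longer below the fold, it was 0.25, without the 77 cells 0.06, and against Csf1r-positive cells alone 0.85.

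The dissociation stress list, made of immediate early and heat shock genes, summed to 6288 CPM in the neutrophil-like cells (4578 CPM without the 77) against 11017 CPM in the other immune cells. It was at 11512, 8944, 6337 and 2830 CPM over the bins. Fos, a subunit of the factor AP-1, stood at 2097 against 3407 CPM, and Atf3, a stress-induced factor, at 74.5 against 705 CPM. Atf3, Jun and Egr1 of 9 genes lay below the fold, against 19.4% of all genes. Under TMM scaling only Atf3 did, and without the 77 cells 7 of the 9 did, against 33.5% of all genes. Cells low in secondary granule genes were thus also the cells with the higher values of this list.

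At P25 the 13 cells again fell along the secondary granule genes. In 4 of them these genes held 12.7 to 16.6% of UMIs, with 124 to 298 UMIs of Ltf and no UMI of Il1b. In the other 9 they held 0.101 to 2.18%, with 0 to 60 UMIs of Ltf. All 13 had Retnlg, with 32 to 678 UMIs, and an S100a8 and S100a9 share of 17.1 to 44.9%. The 4 cells at 8 weeks had shares of 36.1, 28.3, 11.1 and 10.0% with 7160, 5276, 532 and 3580 UMIs, and Ltf was seen in 1 of them, with 14 UMIs. Their secondary granule shares were 1.65, 1.08, 5.83 and 0%. With so few cells, levels of single genes at these ages rest on a handful of cells.

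Summed levels of the main lists were set side by side over the libraries. The secondary granule list had 55898, 71911 and 12449 CPM in order of age, and the mature neutrophil list 21263, 32125 and 45987 CPM. The cytokine list had 3384, 3885 and 14805 CPM. At 8 weeks Il1b had 5983 CPM, from 1, 50, 1 and 47 UMIs in the 4 cells. Primary granule genes had 529.6 CPM in the P15 cells, 7.13 CPM in the P25 cells and no UMI in those of 8 weeks, which allows up to 3 of the 16548 UMIs of these cells. These differences could not be compared by a test, since each age was a single library.

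Genes of the tooth tissue were also counted in these cells. The mesenchyme list summed to 14903 CPM in the 442 cells, to 2741 CPM in the 365 without collagen, to 3087 CPM in the other immune cells, whose choice capped collagen, and to 64436 CPM in mesenchymal cells. Col1a1, a chain of type I collagen, had a log2 ratio of 2.59 to the other immune cells with all 442 cells and 0.05 without the 77. With all 442 cells, 8 of the 10 genes of the list lay above the fold, against 7.64% of all genes. Without the 77 no gene of the list did, against 7.81% of all genes. Ibsp, a bone sialoprotein gene, then lay below the fold, against 33.5% of all genes. Of 2 epithelial genes compared, Krt14 lay above the fold with all cells, against 7.64% of all genes. It was joined by Krt5 under TMM scaling, against 13.3% of all genes. Neither lay above the fold without the 77 cells or without the 22 S100-rich comparison cells. Under TMM scaling Lum joined the mesenchyme genes above the fold and Hbb-bs of the erythroid list lay above it. The erythroid list summed to 2286 against 1560 CPM, led by the beta globin Hbb-bs at 1357 CPM, and 13 cells with at least 5 UMIs of it held 95.9% of its UMIs.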

How the data were processed

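Single-cell libraries of sorted Pthrp-mCherry cells from P15, P25 and 8 weeks were used, 1 per time point. The authors counted UMIs per gene and cell with Cell Ranger (6.1.2 in the submitters' processing notes, 6.0.1 in the P25 file header) against mm10, and the deposited values are whole UMI counts without normalization. The P25 gene table had 32293 entries and those of the other libraries 22056 each, and genes were matched by identifier. Cells had a median of 14253.5 UMIs in the P15 library, 15834 in the P25 library and 8712.5 in the 8-week library.

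The members and gene lists were chosen with earlier results of these data known. Cells were chosen as the text states, with no doublets removed: Scrublet (scanpy 1.11.5, expected share 6%) called 419, 0 and 7 cells by its automatic threshold, so the 6% with the highest scores were used as an alternative. UMI counts were summed per library and class and scaled to CPM with exact Poisson intervals. Log2 ratios used a pseudocount of 10 CPM over genes with at least 20 CPM in either class. Shares carry Clopper-Pearson intervals at 95%, and cells were thinned to 1000 UMIs with a fixed random seed. Since cells of 1 library are not replicates, no p-value was computed. Mesenchymal cells, used as background, had at least 1% of UMIs from Col1a1, Col1a2, Col3a1 and Sparc and no UMI of the 4 blood cell genes. TMM factors came from edgeR 4.0.16. The scripts were in Python 3.11.15, and of their steps only the calculation of log2 ratios was tested on simulated data.

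Named genes are those of the lists, the 15 with the highest ratio at 200 CPM or more in the neutrophil-like cells, the 10 with the lowest at 200 CPM or more in the other immune cells (the genes of the selection and mitochondrial, ribosomal and Gm genes left out) and the 15 most abundant. The lists are primary, secondary and gelatinase granule, mature neutrophil, inflammatory cytokine, transcription factor, NADPH oxidase, adhesion and chemotaxis, Fc receptor, interferon response, cell cycle and dissociation stress genes, and markers of other cell types. Coordinates are from GENCODE M21 and promoters from RefSeq, GRCm38.p6. The alternatives changed the selection thresholds, the comparison cells, the scaling, the pseudocount, the fold and the thinning. The study's P6 library was not used here.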

Additional observations from a re-analysis of the deposited data

Results flagged for a closer look

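UMIs of the mCherry reporter, listed in the deposited tables as a transcript of its own and used in none of the comparisons above, were found in the neutrophil-like cells. At P15 there were 452 UMIs in the 442 cells, or 1.02 per cell and 92.7 CPM, and 176 UMIs, or 49.5 CPM, in the 365 cells without collagen. Csf1r-positive cells of the same library had 139 UMIs (27.1 CPM) and mesenchymal cells 37011 UMIs (5.72 per cell, 350 CPM). Thinned to 1000 UMIs, mCherry was seen in 5.57% of the neutrophil-like cells (32.1% unthinned) and in 22.5% of mesenchymal cells. At P25 there were 36 UMIs, of which 34 were in 1 cell with 1.33% collagen and keratin, and at 8 weeks there were none. The cells had passed a sort for mCherry, and how these cells came through it was not tested.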

How the results depend on the processing

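No paired analysis was possible because each time point was 1 library. Of 81 alternatives for the shares and counts of genes, 62 stayed within the interval of the share or within 1.5 times the count. The P15 share was 3.41% with S100a8 and S100a9 at 5% or more, 3.13% with no Csf1r UMI and 3.13% without the cells with collagen. The P25 share ran from 0.142 to 0.178% and the 8-week share from 0.0654 to 0.0915%. Genes higher numbered 949 with CPM computed without S100a8, S100a9 and the secondary granule list, 860 with TMM, 201 with a pseudocount of 50 CPM, 139 at a fold above 4 and 922 when centred on the median, the last chosen after seeing the data. Genes lower numbered 670, 625, 460, 270 and 541 under the same settings, 2209 without the highest Scrublet scores and 2168 without the cells with collagen. Unthinned, Ltf was seen in 50.9% and Retnlg in 94.1% of cells, and thinned to 500 UMIs in 35.5% and 81.5%. The direction of some results turned. Col1a1 had a log2 ratio of -1.26 against every other cell with a Ptprc or Tyrobp UMI. Tmsb4x had 1.13 there. Mcpt8 had 0.11 against Csf1r-positive cells alone, where both levels were near 0. The median ratio of primary granule genes between the outer bins was 2.90, and -3.44 without the cells with collagen, since the bins were then formed anew and a single cell with 1380 primary granule UMIs lay in the lowest. Between those bins the medians of the gelatinase granule, Fc receptor and T and natural killer lists went from 0.37, 0.46 and 0.52 to -0.56, -0.41 and -0.31. Against the other immune cells the mesenchyme and epithelium medians went from 2.15 and 0.98 to -0.19 and -0.44 without the cells with collagen. Genes of these 2 lists had chosen both the comparison cells and the cells left out. Against Csf1r-positive cells Ctsg and Ifitm1 turned from below to above the fold. The Fc receptor median was -0.11 against Csf1r-positive cells, and 0.19 with all 594. With 13 and 4 cells at P25 and 8 weeks, single genes had wide counting intervals there, and shares of cells with a UMI depended on depth.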
